A study of Mus musculus with 37 samples.

Results

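The calpain family is described here by 10 of its genes, Capn1, Capn2, Capn3, Capn5, Capn6, Capn7, Capn10, Capn11, Capn12 and Capn15, of the 48795 genes counted by RNA-seq in the hippocampus of mice with and without the histone demethylase Kdm1a. These 10 members were chosen by name with the difference between Kdm1a-ifKO and control libraries already known, so their fold changes, and whether they were called in the fit over all genes, are given as a description and not as a test of the family. RNA-seq covered 3 Kdm1a-ifKO mice and 3 controls, with 1 poly-A library per mouse, and CTCF ChIA-PET covered 1 library of sorted nuclei from mice labelled WT. Kdm1a-ifKO mice carried floxed Kdm1a alleles (Kdm1a f/f) and the Camk2a-creERT2 transgene, and received tamoxifen at an age of 8 weeks. The controls were littermates without the recombinase that received tamoxifen too, and all animals were on a C57BL/6J background, with the sex of the RNA donors given as male. The age at which the hippocampi were taken for RNA-seq is not given in the sources used here. Since the Camk2a promoter drives recombination only in principal neurons of the forebrain, whole hippocampus still held intact Kdm1a in its other cells. In such bulk samples, fewer cells of a type and less RNA per cell cannot be told apart. The ChIA-PET nuclei were those of Camk2a-positive hippocampal neurons of tamoxifen-treated males. By the study's methods such nuclei were isolated at an age of 12 weeks from Camk2a-creERT2 x CAG-Sun1/sfGFP mice, which carry the recombinase, so they were not from the littermate controls of the RNA-seq.

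Calpains are cysteine proteases of the cytoplasm that are activated by calcium and cut their substrates at a few sites rather than degrading them. The conventional enzymes pair a large catalytic subunit, encoded by Capn1 (calpain 1, or µ-calpain) or Capn2 (calpain 2, or m-calpain), with a small subunit encoded by Capns1, and are held in check by the inhibitor calpastatin, encoded by Cast. In neurons they cut spectrin, neurofilaments and other cytoskeletal and synaptic proteins after calcium entry. The other members either are made in most tissues, as Capn5, Capn7, Capn10 and Capn15 are, or are best known from particular ones, as Capn3 is from skeletal muscle, Capn6 from placenta and embryonic muscle, Capn11 from testis and Capn12 from the hair follicle.

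The total was between 18985542 and 19160327 counts in the control libraries and between 19370926 and 19469947 in the Kdm1a-ifKO libraries, and 16799 genes passed the filter on low counts. Kdm1a itself fell from 80.1 ± 0.897 to 38.2 ± 1.23 CPM (SD, n = 3), where CPM are counts relative to the TMM-normalised library size. All 6 libraries thus matched their labels. Control replicate 3 and Kdm1a-ifKO replicate 2 stood apart from the other libraries on the second principal component, which held 16.6% of the variance. The excitatory neuron markers Camk2a and Slc17a7 were abundant in both genotypes, with Camk2a at 4642 ± 111 CPM in controls against 4818 ± 296 CPM in Kdm1a-ifKOs (SD, n = 3).

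Capn11 and Capn12 had the largest fold changes among the 10 members, and both were nearly silent in controls. Their promoters are shown because these genes moved together, beside that of the ubiquitous Capn2, which was not called. Each runs 5′ to 3′ from 250 bases before to 50 bases after the RefSeq start site (GRCm38.p6), with CpG dinucleotides in capitals.
Capn11 promoter, chr17:45659260-45659559, minus strand: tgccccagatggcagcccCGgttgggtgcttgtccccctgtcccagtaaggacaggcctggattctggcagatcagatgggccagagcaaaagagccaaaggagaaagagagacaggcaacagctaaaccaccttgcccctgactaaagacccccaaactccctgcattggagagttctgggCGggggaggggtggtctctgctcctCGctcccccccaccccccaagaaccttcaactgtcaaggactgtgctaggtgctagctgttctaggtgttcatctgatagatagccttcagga
Capn12 promoter, chr7:28881406-28881705, plus strand: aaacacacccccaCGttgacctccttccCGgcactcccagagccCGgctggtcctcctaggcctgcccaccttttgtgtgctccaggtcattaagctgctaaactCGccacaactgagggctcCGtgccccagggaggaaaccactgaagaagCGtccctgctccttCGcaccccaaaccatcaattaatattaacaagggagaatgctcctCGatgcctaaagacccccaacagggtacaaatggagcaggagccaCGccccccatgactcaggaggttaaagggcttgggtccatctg
Capn2 promoter, chr1:182517561-182517860, minus strand: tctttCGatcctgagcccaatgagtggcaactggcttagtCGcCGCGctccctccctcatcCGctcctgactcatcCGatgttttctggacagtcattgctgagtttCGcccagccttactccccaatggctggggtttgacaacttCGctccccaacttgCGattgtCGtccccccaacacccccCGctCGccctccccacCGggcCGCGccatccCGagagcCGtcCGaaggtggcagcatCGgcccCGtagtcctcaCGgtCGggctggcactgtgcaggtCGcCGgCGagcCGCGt

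The Capn11 promoter held 3 CpGs, and 23.3% of the 32851 promoters in the RefSeq table had fewer. The Capn12 promoter held 9 CpGs, near the median of 7 over all promoters, and the Capn2 promoter held 27, more than 84.5% of all promoters. Promoters were found for 9 of the 10 members, all but Capn5. Among the other ubiquitous members, Capn1 had 14 and 15 CpGs in its pair of promoters, Capn7 had 25 and Capn10 had 21. Capn15 had 25 and 22 CpGs in a pair of overlapping promoters and 3 in another. Of the tissue-restricted members, Capn3 had 6 and 4 CpGs in its pair of promoters and Capn6 had 5. CpG content thus ran from 14 to 27 in every listed promoter of a ubiquitous member except that of Capn15 with 3, and from 3 to 9 in those of the tissue-restricted members.

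Short core promoter motifs were searched on both strands of the same 300 bases. No promoter of a member held the exact TATA box letters TATAAA, which were found in 13.6% of all promoters. Variants of these letters were not searched. The GC box (GGGCGG) was found in the promoters of Capn1, Capn7, Capn6 and Capn11, and in 35.7% of all promoters. The CCAAT box (CCAAT) was found in those of Capn1, Capn2, Capn7, Capn10, Capn6 and Capn11, and in 37.4% of all. The E-box (CANNTG), which is common in short windows, occurred in 72.3% of all promoters, 4 times in that of Capn11 and 3 times in those of Capn12 and Capn6. Each Capn3 promoter and 1 Capn15 promoter held 2, and every other promoter of a member held 1 or 0.

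Capn11 (ENSMUSG00000058626) spans chr17:45630204-45659325 on the minus strand and encodes a catalytic calpain subunit best known from the male germ line. Controls (replicates 1 to 3) held 8, 4 and 11 counts of it, and Kdm1a-ifKOs 24, 70 and 39. As CPM, these were 0.418, 0.21 and 0.591 in controls and 1.23, 3.55 and 2 in Kdm1a-ifKOs, so the lowest Kdm1a-ifKO library lay above the highest control. The mean went from 0.406 ± 0.191 to 2.26 ± 1.18 CPM (SD, n = 3), a ratio of 5.57 and a log2FC of 2.46 with a standard error of 0.475. The Kdm1a-ifKO mice differed among themselves, with replicate 2 highest and replicate 1 lowest. Without Kdm1a-ifKO replicate 2, the log2FC of Capn11 was 1.98, the lowest value with a library left out, and it was 2.83 without control replicate 3, the highest. Capn11 was called higher with any of the 6 libraries left out. A gene was called when its adjusted p-value was under 0.05 in edgeR's quasi-likelihood test over all 16799 tested genes.

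Capn12 (ENSMUSG00000054083) spans chr7:28881422-28893563 on the plus strand and encodes a calpain known from the skin. Its counts were 12, 7 and 1 in controls and 21, 43 and 35 in Kdm1a-ifKOs. On the CPM scale it stood at 0.628, 0.368 and 0.0537 in controls and at 1.08, 2.18 and 1.8 in Kdm1a-ifKOs, again with no overlap. The means were 0.35 ± 0.287 and 1.69 ± 0.56 CPM (SD, n = 3), a ratio of 4.82 and a log2FC of 2.24 (standard error 0.499). As for Capn11, Kdm1a-ifKO replicate 2 was the highest library. Capn12 was no longer called without control replicate 2 (log2FC 2.27) or without Kdm1a-ifKO replicate 3 (log2FC 2.19). Its log2FC rose to 2.95 without control replicate 1 and went down to 1.75 without control replicate 3, the highest and the lowest value with a library left out.

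The counts of Capn12 share their position with other transcripts, and whether reads were counted by strand is not given in the sources used here. Its end overlaps that of Actn4, the actin crosslinker alpha-actinin 4, which lies on the opposite strand and stood at 147 ± 7.91 CPM in controls against 150 ± 3.35 CPM in Kdm1a-ifKOs (SD, n = 3). The antisense transcript Gm44700 lies within Capn12 and had 1 count in each control and 7, 8 and 2 counts in the Kdm1a-ifKO libraries, too few to be tested. Reads of Capn12 and Gm44700 cannot be told apart without strand. Capn11 overlaps no other annotated gene. The end of Tmem63b, a membrane channel gene on the same strand, lies 845 bases before the start of Capn11. Tmem63b had 143 ± 6.53 CPM in controls against 158 ± 6.02 CPM in Kdm1a-ifKOs (SD, n = 3, log2FC 0.14, edgeR adjusted p = 0.128), with every Kdm1a-ifKO library above every control.

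**Figure D1:**
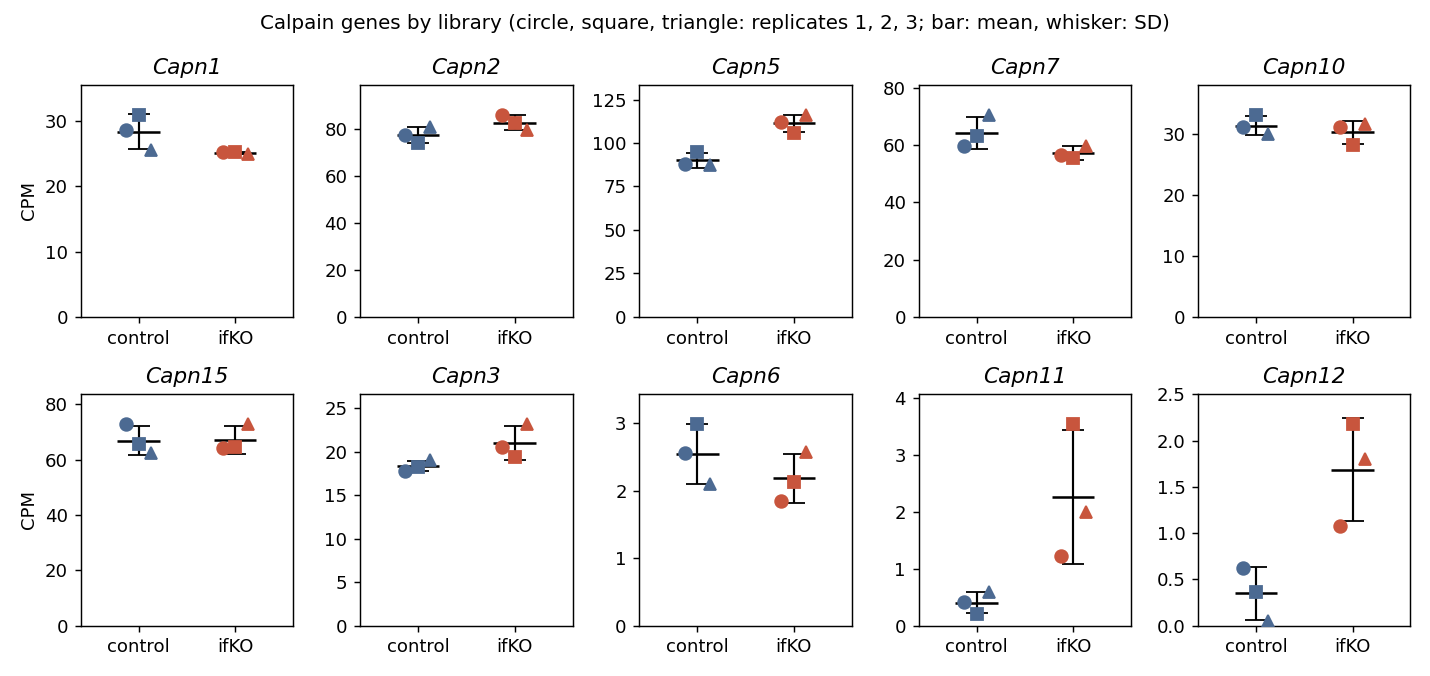
CPM (vertical axes, from 0) of the 10 calpain genes in the 3 control and 3 Kdm1a-ifKO libraries, with 1 symbol per replicate number, the mean as a bar and the SD as whiskers. The groups of Capn11 do not overlap (0.21 to 0.591 against 1.23 to 3.55 CPM), nor do those of Capn12 (0.0537 to 0.628 against 1.08 to 2.18 CPM), whereas those of Capn10 and Capn15 overlap.

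Capn5 was called higher as well, and was the only one of these 3 members that was abundant in controls. Capn5 (ENSMUSG00000035547, chr7:98121559-98178274, minus strand) encodes a calpain without the calcium-binding domain of the conventional enzymes and is related to the nematode protease TRA-3. It had 1679, 1812 and 1631 counts in controls and 2181, 2079 and 2257 in Kdm1a-ifKOs. In CPM, controls held 87.8, 95.1 and 87.6 and Kdm1a-ifKOs 112, 106 and 116, without overlap. The log2FC was 0.30 (standard error 0.0571), a ratio of 1.23, which is far smaller than that of Capn11 or Capn12. Capn5 was called with any single library left out, and its log2FC stayed between 0.27 and 0.34 over the 12 alternative fits. It overlaps Omp on the same strand, which had between 2 and 23 counts per library.

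Altogether, 3 of the 10 members were called higher and 0 lower by edgeR, and the same counts were 3 and 0 by DESeq2. Over all tested genes, 6.04% were called higher and 2.82% lower by edgeR at the adjusted threshold. At an unadjusted p under 0.05, 4 members (Capn3, Capn5, Capn11 and Capn12) were higher and 2 (Capn1 and Capn7) lower. No share over all genes is given at that unadjusted level. With a log2FC over 1 required as well, 2 members were called higher, against 1.36% of the tested genes. Every Kdm1a-ifKO library lay above every control for 4 members (Capn3, Capn5, Capn11 and Capn12), an arrangement that 15.7% of all tested genes showed. Capn1 was the 1 member with every Kdm1a-ifKO library below every control, as were 14.4% of the tested genes. Nothing is read from these shares, because the members were selected on this contrast.

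The conventional catalytic subunits were both expressed and differed little between genotypes. Capn1 had 549, 588 and 476 counts in controls and 493, 496 and 487 in Kdm1a-ifKOs. Its mean was 28.4 ± 2.66 CPM in controls against 25.2 ± 0.171 CPM in Kdm1a-ifKOs (SD, n = 3, log2FC -0.17, standard error 0.0777). Every Kdm1a-ifKO library lay below every control, but Capn1 was not called. Capn2 had 1484, 1411 and 1506 counts in controls and 1675, 1630 and 1555 in Kdm1a-ifKOs. Its means of 77.5 ± 3.43 and 82.9 ± 3.14 CPM (SD, n = 3) gave a log2FC of 0.10 (standard error 0.0566), and the groups overlapped.

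The small subunit and the inhibitor were not members and could be tested. Capns1, which stabilises the large subunits, was the most abundant calpain gene per length, with 231 ± 5.76 TPM (a level per length, from the counts and the summed exon length) in controls and 261 ± 5.34 TPM in Kdm1a-ifKOs (SD, n = 3). All 3 Kdm1a-ifKO libraries (159, 163 and 163 CPM) lay above the controls (146, 146 and 141 CPM). The log2FC of 0.16 (standard error 0.0484) did not pass the threshold, with a Benjamini-Hochberg adjusted p of 0.0513 from edgeR. This value lay close to the threshold, and the adjusted p of Capns1 ran from 0.0336 to 0.195 over the alternative fits. Cast, the calpastatin gene, had a low level of 2 ± 0.37 TPM in controls and 2.08 ± 0.344 TPM in Kdm1a-ifKOs (SD, n = 3, log2FC 0.05, edgeR adjusted p = 0.893).

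The remaining ubiquitous members were not called, and in each the libraries of the genotypes overlapped. Capn7, whose protein binds the membrane-remodelling ESCRT machinery, had 1139, 1202 and 1311 counts in controls and 1098, 1093 and 1166 in Kdm1a-ifKOs (log2FC -0.17, standard error 0.0683). The end of its body overlaps Sh3bp5 on the opposite strand, which stood at 136 ± 2.83 and 145 ± 15.2 CPM (SD, n = 3). Capn10, known as a candidate gene for type 2 diabetes, had 593, 628 and 556 counts in controls and 602, 554 and 614 in Kdm1a-ifKOs (log2FC -0.05). Capn15, the homologue of the Drosophila gene small optic lobes, had 1391, 1248 and 1161 counts in controls and 1247, 1269 and 1420 in Kdm1a-ifKOs (log2FC 0.01, standard error 0.0715). Neither gene was consistently higher in a genotype.

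The other tissue-restricted members did not follow Capn11 and Capn12. Capn3, the muscle calpain that binds titin, was well expressed with 341, 349 and 354 counts in controls and 399, 383 and 451 in Kdm1a-ifKOs. Every Kdm1a-ifKO library lay above the controls, yet the log2FC of 0.19 (standard error 0.0844) was not called. It shares the start of its annotated body with Ganc on the same strand, which had 13.6 ± 1.36 CPM in controls against 12.5 ± 1.16 CPM in Kdm1a-ifKOs (SD, n = 3). Capn6, whose protein lacks the catalytic cysteine and binds microtubules, had 49, 57 and 39 counts in controls and 36, 42 and 50 in Kdm1a-ifKOs. Its log2FC of -0.22 had a standard error of 0.212, and the groups overlapped.

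**Figure D2:**
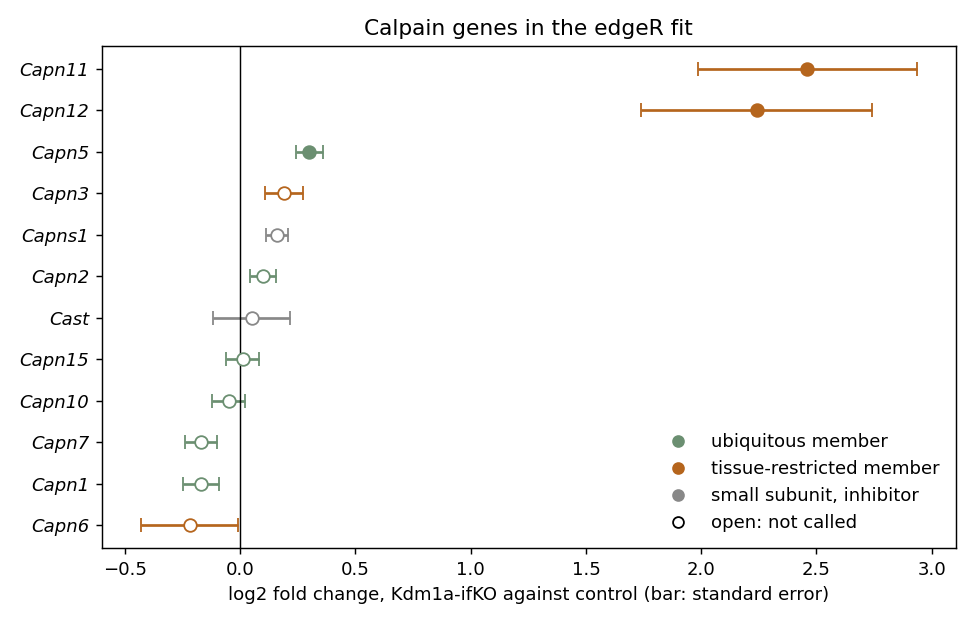
log2FC of Kdm1a-ifKOs against controls (horizontal axis, with the standard error as a bar) of the 10 members, Capns1 and Cast in the edgeR fit of 3 libraries per genotype. Filled points were called, and Capn11 (2.46) and Capn12 (2.24) lie far to the right of Capn5 (0.30), with the other genes between -0.22 and 0.19.

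The 6 ubiquitous members (Capn1, Capn2, Capn5, Capn7, Capn10 and Capn15) had a median log2FC of -0.02, with 1 called higher, 0 called lower and a range from -0.17 to 0.30. The 4 tissue-restricted members (Capn3, Capn6, Capn11 and Capn12) had a median of 1.22, with 2 called higher, 0 called lower and a range from -0.22 to 2.46. The median over all tested genes was -0.0034. This median of 1.22 lies between a pair of genes near 0 and a pair above 2, and describes neither pair. Summed over members, the ubiquitous genes had 275 ± 3.74 TPM in controls and 284 ± 7.35 TPM in Kdm1a-ifKOs (SD, n = 3). The tissue-restricted genes had 16.7 ± 0.196 TPM in controls and 22.6 ± 2.34 TPM in Kdm1a-ifKOs (SD, n = 3). The share of the tissue-restricted genes in the summed level of the 10 members was therefore 5.74% in controls and 7.36% in Kdm1a-ifKOs.

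Levels between genes were compared per length, as TPM. In controls, Capn5 was highest with 65.3 ± 3.1 TPM (SD, n = 3), and its range did not overlap that of the next gene. Capn7 (52.2 TPM), Capn2 (48.6 TPM) and Capn15 (46.4 TPM) followed, and the ranges of neighbours among them overlapped, so their order is not resolved. Capn1 had 33.7 TPM and Capn10 28.6 TPM, without overlap between their ranges. Capn3 was the highest tissue-restricted member with 14.5 ± 0.417 TPM (SD, n = 3), near the median of 17.7 TPM over all tested genes. It was followed at a distance by Capn6 with 1.3 TPM, Capn11 with 0.596 TPM and Capn12 with 0.292 TPM, and the ranges of Capn11 and Capn12 overlapped.

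The order among the abundant members depended on the length used. With the length of the longest annotated transcript in place of all exons, Capn2 came first with 75 TPM and Capn5 next with 62.6 TPM, while the last 4 ranks (Capn3, Capn6, Capn11 and Capn12) were the same. In Kdm1a-ifKOs, Capn11 reached 3.35 TPM, between 1.81 and 5.28 in single libraries, and lay above Capn6 with 1.12 TPM (0.944 to 1.31). Capn12 reached 1.41 TPM (0.9 to 1.84) and overlapped Capn6. Both remained far below Capn1 with 30.1 TPM, so their large fold changes were reached at low levels.

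**Figure D3:**
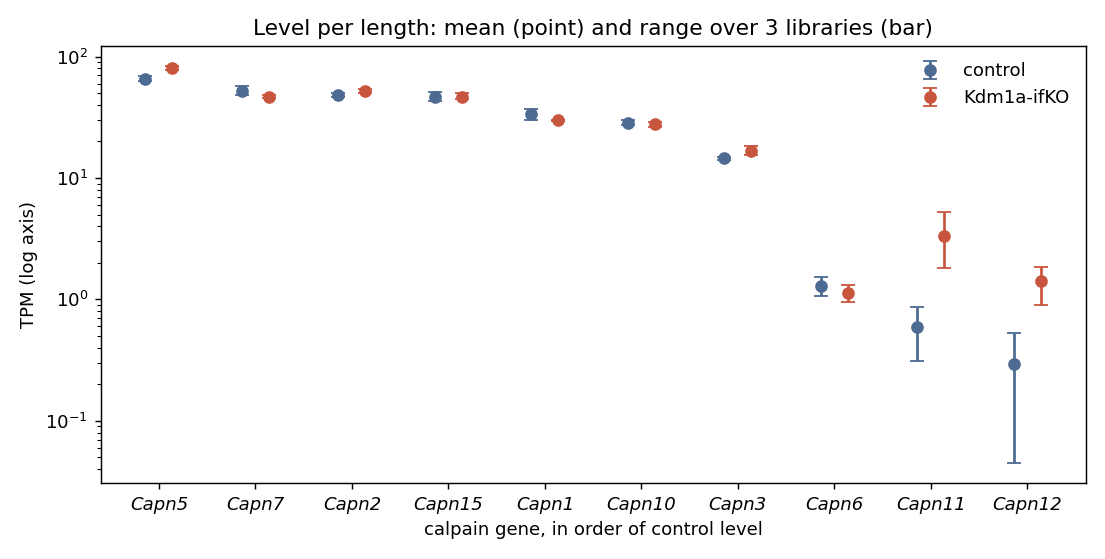
TPM (vertical log axis) of the 10 calpain genes in order of their control level, with points for the mean and bars for the range over 3 libraries of each genotype. Control levels fall from 65.3 TPM for Capn5 to 0.292 TPM for Capn12, and Capn11 and Capn12 show the widest gaps between the genotypes.

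The gastrointestinal and rarer calpains were at or near 0 and could not be tested. Capn8 had 2 counts over the controls and 1 over the Kdm1a-ifKOs. Capn9 had 14 and 18 counts, and the second small subunit gene Capns2 had 3 and 6. Capn13 had 0 counts in all 6 libraries, which allows up to 0.158 CPM in a library (3 counts, for counting error only). Capn9 had nearly as many control counts as Capn12 (20) and did not show its rise to 99 counts. For Capn8, Capn13 and Capns2, with 3 or fewer control counts, no fold can be given.

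Other genes best known from the same tissues ranged from 0 counts to a few CPM, and none of those tested was called. Of 6 male germ cell markers, Tnp1 and Prm2 had 0 counts in every library, and the summed level of the list was 4.5 to 7.52 CPM in controls and 4.97 to 6.78 CPM in Kdm1a-ifKOs, nearly all of it from Ddx4, with 5.8 ± 1.34 CPM in controls against 5.48 ± 1 CPM in Kdm1a-ifKOs (SD, n = 3). Of 5 markers of the hair follicle and keratinocytes, Krt71 had 0 counts, and the sum was 2.74 to 3.5 CPM in controls and 1.98 to 2.93 CPM in Kdm1a-ifKOs, most of it from Trp63. Of 6 skeletal muscle markers, the sum was 8.98 to 10.7 CPM in controls and 7.24 to 9.04 CPM in Kdm1a-ifKOs, most of it from Acta1 and Ttn. Of these 3 lists, 1, 2 and 2 markers passed the filter, and 0 were called by edgeR or DESeq2 or had an unadjusted p under 0.05. The median log2FC was below 0 in each (-0.08, -0.36 and -0.29).

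Glial markers moved with genotype in the same libraries. Of 6 microglia markers, 3 were called higher (Cx3cr1, Tmem119 and Csf1r) and 0 lower, and their summed level went from 292 to 318 CPM in controls to 334 to 419 CPM in Kdm1a-ifKOs. Of 6 astrocyte markers, 2 were called higher (Slc1a3 and S100b), with sums of 1705 to 1837 CPM and 2002 to 2198 CPM. Oligodendrocyte, endothelial and ependymal markers had 0 calls by edgeR or DESeq2 and 0 with an unadjusted p under 0.05, and interneuron markers had 0 calls by either tool and 2 lower ones at that unadjusted level. Among 5 choroid plexus markers Kl was called higher (log2FC 1.28), and the 4 others were not. Those 4 went both ways, with Ttr (log2FC -1.49) and Clic6 (log2FC -0.85) below 0 and Folr1 (log2FC 0.12) and Aqp1 (log2FC 0.21) above 0. At an unadjusted p under 0.05, 1 marker of this list (Kl) was higher and 1 (Clic6) lower. Among the excitatory neuron markers Neurod6 was called lower (log2FC -0.36), and 0 were called higher by edgeR or DESeq2 or had an unadjusted p under 0.05 in that direction. The part of these markers in the difference of Capn5 was not tested.

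Calpain substrates were examined at the level of their mRNA, which the protease does not act on. Of 30 genes for known substrates and partners, all passed the filter, 0 were called higher and 1 was called lower in edgeR's test. Over all tested genes, edgeR called 6.04% higher and 2.82% lower. DESeq2 called 0 substrates higher and 4 lower, and at an unadjusted p under 0.05 there were 2 higher and 9 lower. For the DESeq2, unadjusted and other alternative counts, no share over all genes is given, so no trend is read from them. The substrate called lower was Nefl, the neurofilament light chain, with 412 ± 11.5 CPM in controls against 345 ± 9.28 CPM in Kdm1a-ifKOs (SD, n = 3, log2FC -0.26, standard error 0.0484, edgeR adjusted p = 0.00475). It was called lower in all 12 alternative fits. The medium and heavy neurofilament chains Nefm and Nefh both had a log2FC of -0.10 and were not called. The median of the list was -0.10, and 22 of the 30 genes had a log2FC below 0, against 8548 of all 16799 tested genes.

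The spectrin genes, whose products are the classical calpain substrates, were not called. Sptan1 had a log2FC of -0.17 (1263 ± 114 CPM in controls against 1123 ± 54.5 CPM in Kdm1a-ifKOs, SD, n = 3, edgeR adjusted p = 0.13), and Sptbn1 one of -0.14. The AMPA receptor subunit gene Gria1 had a log2FC of -0.00 and was not called. Cdk5r1, which encodes the Cdk5 activator p35 that calpain turns into p25, had 243 ± 10.8 CPM in controls against 233 ± 10.1 CPM in Kdm1a-ifKOs (SD, n = 3, log2FC -0.06). Camk4 (log2FC -0.30, edgeR adjusted p = 0.0544) and Ppp3ca (log2FC -0.19, edgeR adjusted p = 0.054) came close to the threshold from below 0, and Bid (log2FC 0.29, edgeR adjusted p = 0.0583) from above 0. The count of substrates called lower depended on the fit, with 4 in DESeq2 (Nefl, Camk4, Ppp3ca and Prkca) and 9 without the filter on low counts.

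**Figure D4:**
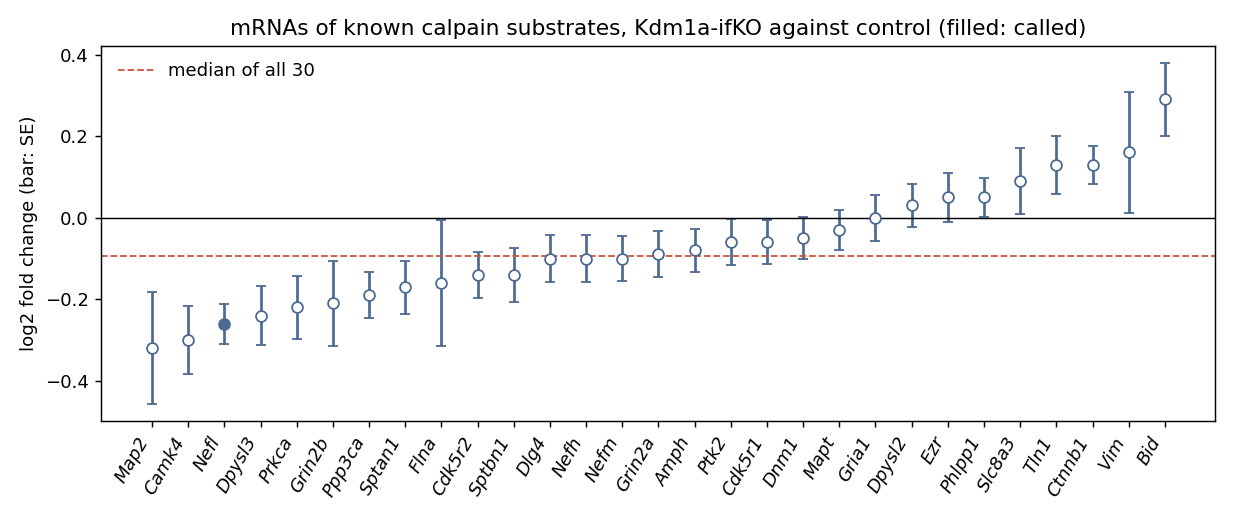
log2FC (vertical axis, with the standard error as a bar) of the mRNAs of 29 of the 30 calpain substrates and partners, in order of size. Nefl (-0.26) is the filled point, called lower, and the dashed line marks the median of all 30, -0.10.

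Capn11 was also examined in the map of CTCF loops, because its surroundings are rich in them. CTCF binds DNA at a long motif and holds the ends of chromatin loops, and ChIA-PET counts the paired-end tags (PETs) that join a pair of CTCF-bound anchors. The library held 27786 loops of at least 3 PETs, and with no Kdm1a-ifKO library beside it, it cannot show a difference between genotypes. A loop counted as near a gene when an anchor lay within 10 kb of its body. Capn11 had 19 such loops with 264 PETs, and 10 of them had an anchor on the gene body. The median over all tested genes was 1 loop, and 98.7% of them had fewer loops than Capn11. Because Capn11 was picked for its loops, this rank describes the locus and tests nothing.

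The other members had fewer loops nearby. Capn5 had 12, Capn1 had 9, Capn7 had 6, Capn10 and Capn12 had 4 each and Capn2 had 3. Capn15 and Capn3 had 1 each and Capn6 had 0. In all, 9 of the 10 members had an anchor within 10 kb, against 56.9% of the tested genes. Among the 3 members called higher, the number of loops therefore ran from 4 to 19, and among the 7 others from 0 to 9. The 19 loops are those of Capn11, which was picked for them, so nothing is read from these ranges. The 4 loops of Capn12 held 20 PETs and none touched its body. Capn13, which had no counts at all, had 11 loops with 225 PETs, so loops of this strength were also found at a calpain gene without a counted transcript.

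The anchors around Capn11 formed 3 groups. The first (chr17:45624484-45632325) covered the end of the gene with 4 of its exons and belonged to 9 loops with 187 PETs. The second (chr17:45641754-45644082) lay inside the body, 15.2 to 17.6 kb from the start site, overlapped 3 exons and belonged to 7 loops with 49 PETs. The third (chr17:45662322-45665242) lay 3.0 to 5.9 kb before the start site, in the body of Tmem63b and its antisense transcript Gm16172, and belonged to 6 loops with 46 PETs. Loops within the locus joined the first group to the second and the second to the third, and 3 loops had both ends near Capn11.

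The strongest loop joined the end of Capn11 to the end of Slc29a1 and carried 140 PETs, 53% of all PETs near Capn11. Only 0.554% of the 27786 loops had as many. Its far anchor (chr17:45577925-45587928) overlaps the end of the Slc29a1 body and the antisense transcript Gm17080. The core of the CTCF motif was searched there on both strands as CCANNAG followed directly by NNGGC, where N is any base. The matches near Capn11, and those in the body of Slc29a1, are printed because they mark where the loop ends hold CTCF-like letters, with the 12 core letters in capitals between 10 flanking bases on either side (GRCm38.p6), read along the strand of the match.
Group 1, Capn11 intron, chr17:45631751-45631782, plus strand: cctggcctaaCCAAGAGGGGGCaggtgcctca
Group 2, Capn11 intron, chr17:45643006-45643037, minus strand: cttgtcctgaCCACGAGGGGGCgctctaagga
Group 3, Tmem63b exon, chr17:45663220-45663251, minus strand: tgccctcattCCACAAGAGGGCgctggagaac
Group 3, Tmem63b exon, chr17:45663450-45663481, plus strand: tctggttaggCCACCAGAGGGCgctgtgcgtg
Far anchor, Slc29a1 intron, chr17:45586922-45586953, plus strand: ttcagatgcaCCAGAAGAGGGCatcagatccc
Far anchor, Slc29a1 intron and Gm17080 exon, chr17:45586620-45586651, minus strand: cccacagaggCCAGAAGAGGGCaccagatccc

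The first group held 1 match in 7.84 kb, the second 1 in 2.33 kb and the third 2 in 2.92 kb. The far anchor held 6 matches in 10 kb, 3 on either strand. Windows of the same lengths at the centres of all 55480 anchors held a match in 73.1%, 48.8%, 53.7% and 78% of cases. A match was thus common in anchors at these lengths. Anchors overlap CTCF peaks, and windows elsewhere in the genome were not searched. These letters describe the windows and do not show that CTCF binds at them.

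**Figure D5:**
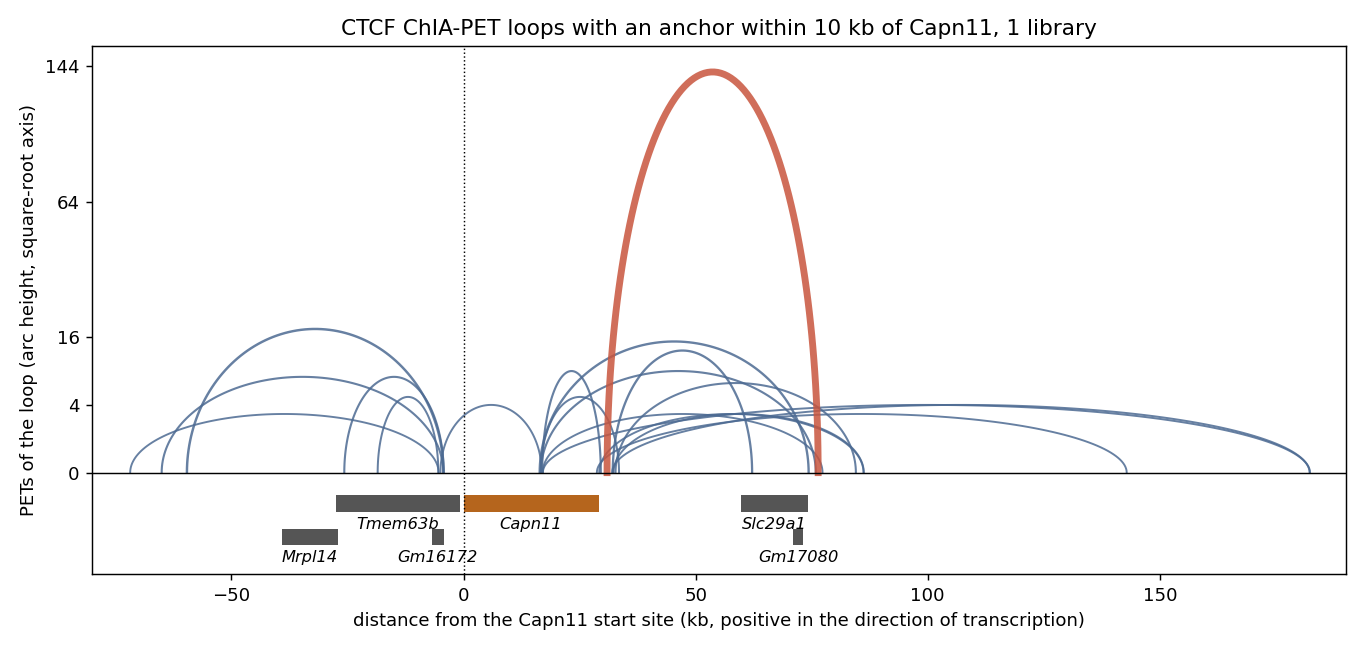
The 19 CTCF loops near Capn11 as arcs between anchor midpoints, with the distance from its start site in kb on the horizontal axis and the number of PETs as the height on a square-root axis. Bars show Capn11 and neighbouring genes, and the tallest arc (140 PETs, 1 library of WT neurons) joins the end of Capn11 to the end of Slc29a1.

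Genes at the far ends of these loops, which are no members of the family, were then tested in the RNA-seq data. Slc29a1, which encodes a nucleoside transporter that carries adenosine across the cell membrane, lay within 10 kb of the far anchor of 6 loops with 187 PETs. It had 349, 390 and 337 counts in controls and 737, 734 and 722 in Kdm1a-ifKOs. Its CPM rose from 18.3, 20.5 and 18.1 in controls to 37.9, 37.3 and 37.1 in Kdm1a-ifKOs, with little spread within either group. The log2FC was 0.98 (standard error 0.0713, edgeR adjusted p = 1.38e-06), and it stayed between 0.95 and 1.04 and past the threshold in all 12 alternative fits. Slc29a1 overlaps Gm17080 on the opposite strand, which had 0.672 ± 0.277 CPM in controls against 0.922 ± 0.276 CPM in Kdm1a-ifKOs (SD, n = 3).

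The 11 other tested genes within 10 kb of a far anchor were not called. Hsp90ab1, which encodes the chaperone Hsp90 beta and neighbours Slc29a1, was near 6 loops with 165 PETs and stood at 1809 ± 36.7 and 1857 ± 100 CPM (SD, n = 3, log2FC 0.04, edgeR adjusted p = 0.707). Mrpl14 (log2FC -0.02), Slc35b2 (log2FC -0.07), Aars2 (log2FC -0.04), Nfkbie (log2FC 0.19), Tcte1 (log2FC -0.06), Spats1 (log2FC -0.24), Gm16172 (log2FC 0.00), Gm17080 (log2FC 0.46), F630040K05Rik (log2FC -0.53) and Tmem63b (log2FC 0.14) were not called either. Of the genes within 50 kb of Capn11, Mymx had 1 count in all libraries together and Gm25008 had 0. Within 50 kb of Capn12, Ech1 (log2FC 0.21, edgeR adjusted p = 0.0771), Lgals4 (log2FC 0.09) and Actn4 (log2FC 0.03) were tested and not called, and Lgals7, Gm10648 and Gm44699 had 6 counts or fewer in all. At the far ends of the Capn12 loops, Sirt2 (log2FC 0.11), Hnrnpl (log2FC -0.04) and Rinl (log2FC 0.23) were not called. Capn11 and Slc29a1 were thus the only genes called among those tested near the Capn11 loops, and whether their loop bears on either was not tested.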

How the data were processed

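RNA-seq counts of 3 control and 3 Kdm1a-ifKO hippocampi and CTCF loops of 1 ChIA-PET library were used. The authors trimmed single-end reads with cutadapt, aligned them to mm10 (GRCm38) with HISAT2 2.1.0, filtered on mapping quality and nuclear chromosomes, and deposited raw read counts per Ensembl gene from HTSeq 0.11.1, with the strand setting not given in the sources used here. The deposited loops hold raw PET counts from ChIA-PIPE, limited by them to loops of 3 or more PETs whose anchors both overlapped a CTCF peak. Versions are from the submitters' processing notes.

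Genes were tested with edgeR 4.0.16 (R 4.3.3; filterByExpr, TMM, quasi-likelihood F test on genotype alone, Benjamini-Hochberg adjustment over 16799 genes), checked on simulated data. The standard error was the log2FC divided by the square root of F. TPM used the summed exon length from the GENCODE M21 annotation. Alternatives were DESeq2 1.42.0, its size factors, upper-quartile factors, 2 other filters, a replicate block, each library left out, other lengths, and other distances or PET minimums for loops. Tables were made in Python 3.11.15. Sequences came from RefSeq (GRCm38.p6). The members and lists were chosen with earlier results of these data known. Named were all members, 6 other calpain system genes, called substrates, called markers and Kdm1a. Also named were protein-coding genes overlapping a member, genes within 50 kb of Capn11 or Capn12, and tested genes within 10 kb of the far anchors. Other annotated transcripts overlap Capn1, Capn2, Capn5, Capn6, Capn10 and Capn15 and were not named. Other substrates, and markers that were not called, among them Camk2a, Slc17a7 and those at 0, were named after their values were seen. Each mouse gave 1 library, so the spread is that between mice. An exact permutation test of 3 against 3 cannot go below 0.1, and none is given. Results of some items on the lists are not reported here.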

Additional observations from a re-analysis of the deposited data

How the results depend on the processing

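The number of members called higher was 3 or 2 and that of members called lower 0 in all 12 alternative fits. Capn5 and Capn11 were called in each, and Capn12 was not called with a replicate block (log2FC 2.24), without Kdm1a-ifKO replicate 3 (2.19) or without control replicate 2 (2.27). The median log2FC of the ubiquitous members lay between -0.07 and 0.01 and that of the tissue-restricted members between 0.99 and 1.35. Capn15, near 0, ran from -0.06 to 0.07 with a library left out, below 0 without Kdm1a-ifKO replicate 3, control replicate 2 or control replicate 3. Substrates called lower numbered 1, but 2 with upper-quartile factors, 9 without a filter on low counts, 2 with at least 10 counts in sum, 4 in DESeq2 and 1 to 3 with a library left out. Substrates called higher numbered 0, but 1 (Bid) with upper-quartile factors, without a filter, and without Kdm1a-ifKO replicate 2, so 0 to 1 with a library left out. The cause was not tested. Loops near Capn11 numbered 10 with an anchor on the body, 34 within 50 kb, 11 with at least 5 PETs and 4 with at least 10. In the order of control levels, 5 of 10 members kept their rank with CPM, and 5 with the longest transcript. Replicate numbers did not pair the libraries, as deviations of same-numbered mice correlated at -0.0316, -0.0886 and -0.144. With the replicate block, 3 members called became 2 and the medians were -0.02 and 1.22. Low counts of Capn11 and Capn12 limit the precision of their folds.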
